A study of Rattus norvegicus with 6 samples.

Results

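The genes described here are 39 markers of white blood cells, chosen by name because their transcripts are found mainly in myeloid cells or lymphocytes. They fall into 15 myeloid and phagocyte genes, 3 genes of antigen presentation, 7 genes shared by most leukocytes, 9 T cell genes, 2 B cell genes and 3 genes of cytotoxic cells. On the arrays 59 probes stood for 37 of them, among 15645 genes that could be named. Itgax and Ms4a1 were matched by no probe and are not analysed here.

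Renal cortex RNA was compared between 3 male Sprague-Dawley (Crl:CD(SD)) rats given TBBC, that is thiobis(6-tert-butyl-m-cresol) joined at its 4,4' positions, a phenolic antioxidant bridged by sulfur, and 3 rats of the same strain and sex given corn oil, the vehicle. The dose of TBBC was 300 mg/kg/day, both groups were treated for 4 weeks, and the rats were bought at 5 weeks of age and kept on the same basal diet. Each rat had its own 1-colour Agilent array of 61537 probes. The whole cortex was used without sorting cells, and 1 dose and 1 time were sampled.

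Myeloid cells of the kidney are mainly resident macrophages and dendritic cells, which take up debris, sense injury and present peptides on MHC class II molecules to CD4 T cells. T, B and cytotoxic lymphocytes are sparse in a healthy cortex and enter it from the blood along gradients of chemokines. In RNA from a whole tissue, more or fewer cells of a type and more or less RNA per cell cannot be told apart.

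Values are log2 levels, the background-subtracted signal of a probe over the 75th percentile of its array, so that a level of 0 lies at that percentile. The share of probes well above background was 67.1% to 70.9%, and the 75th percentile ran from 861 to 982 in TBBC rats and from 995 to 1038 in vehicle rats. Of the 39 markers, 35 passed the filter on dim probes, among 12298 named genes and 32956 transcripts in all, and 32 of the 35 lay well above background on all 6 arrays. The exceptions were Itgam, Cd2 and Cd79b. The tissue itself was checked with 10 genes of cortical tubules and glomeruli, all of which were measured. Their summed linear level was 994 to 1048 in TBBC rats and 1239 to 1363 in vehicle rats. The arrays lay on 2 slides, scanned on different days, with TBBC 1 and all vehicle arrays on the first and TBBC 2 and 3 on the second.

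None of the 35 markers changed between TBBC and vehicle rats in the fit of limma at an adjusted p under 0.05 (0 called, 0.531% of all transcripts called), and 2 had an unadjusted p under 0.05, where 20% of all transcripts did. The median log2 difference over the markers was 0.01, against -0.02 over all transcripts, with 19 markers above 0 and 16 below. The groups did not overlap for 2 markers, Cd14 (higher in TBBC, on the brighter of its probes) and Cd74 (lower in TBBC), against 28.3% of all transcripts. Behind these near-zero differences the TBBC rats differed widely among themselves. The SD of a marker among TBBC rats was larger than that among vehicle rats for 34 of 35 markers, or 97.1%, against 74.3% of all transcripts, and its median was 0.65 in TBBC rats and 0.24 in vehicle rats.

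TBBC 3 had the highest level of the 6 arrays for 31 of the 35 markers, or 88.6%, while it was the highest for 19.0% of all transcripts. It exceeded every vehicle rat for 32 of 35. TBBC 1 and TBBC 2 were both below the vehicle mean for 26 markers (74.3%, against 37.7% of all transcripts) and both below every vehicle rat for 14 (40.0%, against 23.3%). Measured from the vehicle mean, the median marker lay at -0.27, -0.37 and 0.66 in TBBC 1, 2 and 3, against -0.24, 0.12 and 0.14 in vehicle 1, 2 and 3. TBBC 3 exceeded the mean of the other TBBC rats by a median of 1.04, or 2.05-fold, while the same median over all transcripts lay within 0.01 of 0. The vehicle rats were not level either, since vehicle 1 was the lowest of its group for 27 of 35 markers. TBBC 3 was singled out after these values had been seen, so its place is a description with no test.

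**Figure D1:**
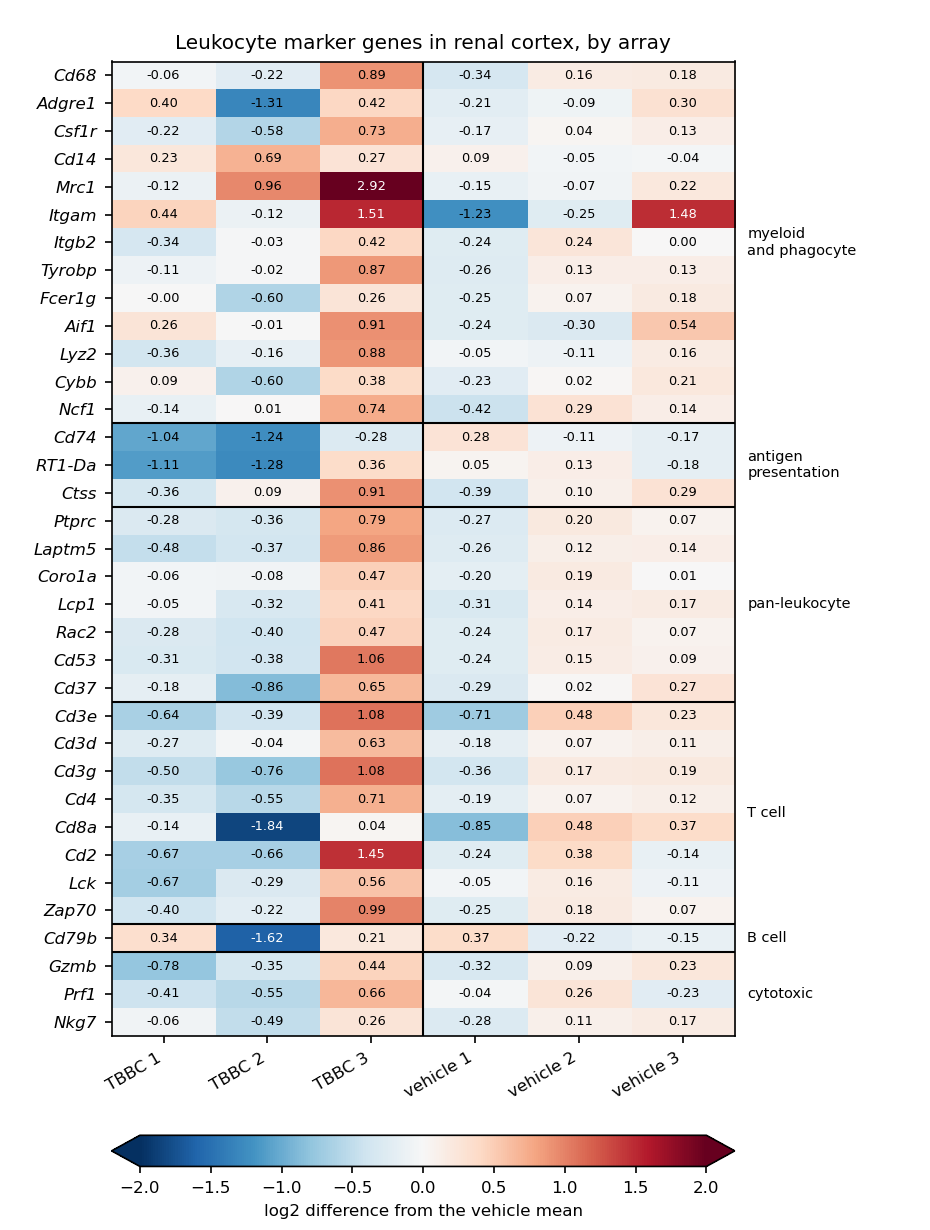
Log2 level of the 35 measured leukocyte markers (rows, by group) on each array (columns) minus the mean of the vehicle rats, as numbers and as colour from blue (lower) to red (higher). TBBC 3 is the highest array for 31 of the 35 markers, and TBBC 1 and 2 are both below the vehicle mean for 26.

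Among the myeloid and phagocyte genes, 13 of 15 were tested and 0 passed, with a median log2 difference of 0.20. TBBC 3 exceeded every vehicle rat for all 13. Cd68, a lysosomal glycoprotein of macrophages, stood at log2 levels 1.11, 0.95 and 2.06 in TBBC rats 1, 2 and 3, and at 0.83, 1.33 and 1.35 in vehicle rats 1, 2 and 3, an order kept throughout. TBBC 3 stood above all other rats, and the remaining TBBC rats lay within the vehicle range. Its mean was 1.37 ± 0.60 in TBBC rats and 1.17 ± 0.29 in vehicle rats (SD, n = 3 each), a log2 difference of 0.20 ± 0.32 (SE) with a limma adjusted p of 0.769.

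Csf1r, the receptor for the growth factors that keep macrophages alive, had levels of -1.24, -1.60 and -0.29 in TBBC rats, against -1.18, -0.98 and -0.89 in vehicle rats. Here TBBC 3 was the highest of all rats and the other TBBC rats the lowest, and the log2 difference of the means was -0.02 ± 0.33 (limma adjusted p = 0.977). A further probe of Csf1r gave the same order of the TBBC rats and a difference of 0.06. Tyrobp, the adaptor that signals for many myeloid receptors, had levels of 3.43, 3.52 and 4.40 in TBBC rats and 3.28, 3.66 and 3.67 in vehicle rats. Again only TBBC 3 lay outside the vehicle range. Adgre1, which encodes the macrophage surface protein F4/80, broke this order, with 0.38, -1.33 and 0.39 in TBBC rats and -0.23, -0.12 and 0.28 in vehicle rats. TBBC 2 alone was low there, and TBBC 1 was as high as TBBC 3.

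Mrc1, the mannose receptor of scavenging macrophages, had the largest positive difference of the markers. Its levels were -2.85, -1.76 and 0.20 in TBBC rats, against -2.87, -2.79 and -2.50 in vehicle rats. TBBC 3 stood 5.65-fold above the mean of TBBC 1 and 2, and TBBC 1 lay among the vehicle rats. The log2 difference was 1.25 ± 0.72, with a limma adjusted p of 0.389. It was 0.42 without TBBC 3, and its direction turned, to -0.12, with slide as a fixed term and on the slide that holds both groups. As the second slide holds no vehicle rat, both settings set TBBC 1 alone against the vehicle rats and are the same comparison. A second scavenger receptor, Cd163, which takes up haemoglobin bound to haptoglobin, did not pass the filter. All 3 of its probes were well above background in TBBC 3 alone. The brightest had levels of -6.68, -7.33 and -1.75 in TBBC rats and -7.41, -8.18 and -7.65 in vehicle rats, where it was not well above background. On this probe the TBBC mean was at least 1.62-fold above the bound for vehicle rats, and TBBC 3 by itself was at least 18.3-fold above it. On the other probes TBBC 3 was at least 2.98-fold and 1.62-fold above the bound, and the TBBC mean lay below it. The bound is the mean over the vehicle arrays of the lowest signal that counts as well above background, or of the probe's own signal where that was higher.

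Cd14, the coreceptor for bacterial lipopolysaccharide, which injured tubule cells are also known to make, was the marker least like the others. Its levels were -0.11, 0.35 and -0.07 in TBBC rats, against -0.25, -0.39 and -0.38 in vehicle rats. Every TBBC rat lay above every vehicle rat, as for 13.1% of all transcripts, and TBBC 2 rather than TBBC 3 was the highest. The log2 difference was 0.40 ± 0.15, which did not pass after adjustment over all transcripts (limma adjusted p = 0.221, unadjusted p = 0.038). On a second, dimmer probe the groups overlapped, with -3.53, -2.72 and -3.21 in TBBC rats and -3.20, -3.76 and -3.90 in vehicle rats.

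Lyz2, the lysozyme of macrophages and granulocytes, had levels of 5.82, 6.02 and 7.06 in TBBC rats and 6.13, 6.07 and 6.34 in vehicle rats. TBBC 3 was clearly above the vehicle range and the other TBBC rats below it. Aif1, a calcium-binding protein of activated macrophages, had 2.99, 2.72 and 3.64 in TBBC rats and 2.49, 2.43 and 3.27 in vehicle rats, with a log2 difference of 0.39 ± 0.32 (limma adjusted p = 0.547). That is its brightest probe, and its other tested probes gave smaller differences, of 0.09 and 0.01. On those, TBBC 1 and TBBC 2 lay within the vehicle range. Itgam, the alpha chain of complement receptor CR3, was dim and noisy, at -4.76, -5.32 and -3.69 in TBBC rats and -6.43, -5.45 and -3.72 in vehicle rats. Its groups overlapped, with a log2 difference of 0.61 ± 0.74 (limma adjusted p = 0.696), and it was well above background in 2 of the 3 vehicle rats. Fcer1g, the shared Fc receptor chain, Itgb2, the common beta chain of leukocyte integrins, and the NADPH oxidase genes Cybb and Ncf1 had log2 differences between -0.11 and 0.20. In all 4 of these TBBC 3 was the highest rat. For Fcer1g this held on its brighter probe, while on its dimmer probe vehicle 3 was the highest, at 2.48 against 2.46 in TBBC 3.

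Macrophage and granulocyte promoters commonly carry sites for PU.1, a transcription factor that opens myeloid genes. The 250 bases before the RefSeq start of a gene were available for 31 promoters of 30 markers (RefSeq, GRCr8) and were searched on both strands for GAGGAA, the core of the PU.1 site. The core was present in 17 of the 31 promoters, or 54.8%, against 23.3% of 33469 promoters in the table. By group it was in 8 of 11 myeloid promoters, 2 of 3 antigen presentation promoters, 4 of 5 pan-leukocyte promoters, 3 of 9 T cell promoters and 0 of 3 cytotoxic promoters. TBBC 3 was also the highest rat for Cd163 and Ncf1, whose promoters held no core, and for the 3 cytotoxic genes. A relation between the core and the levels was not tested. The promoters of Cd68, Mrc1 and Lyz2 are printed as 3 myeloid genes that hold the core and were highest in TBBC 3. Capitals mark the core, and TTCCTC is the core read on the other strand.
Cd68 (chr10:54882442-54882691, - strand): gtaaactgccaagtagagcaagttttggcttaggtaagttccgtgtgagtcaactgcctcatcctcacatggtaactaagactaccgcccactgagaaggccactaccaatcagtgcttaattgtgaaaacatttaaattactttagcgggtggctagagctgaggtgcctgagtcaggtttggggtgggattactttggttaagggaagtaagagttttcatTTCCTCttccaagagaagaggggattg
Mrc1 (chr17:82157475-82157724, + strand): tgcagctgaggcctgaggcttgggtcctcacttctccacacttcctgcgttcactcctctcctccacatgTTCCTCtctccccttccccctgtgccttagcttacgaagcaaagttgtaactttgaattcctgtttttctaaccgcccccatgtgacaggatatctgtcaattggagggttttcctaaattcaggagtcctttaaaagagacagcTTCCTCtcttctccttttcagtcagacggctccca
Lyz2 (chr7:54798012-54798261, - strand): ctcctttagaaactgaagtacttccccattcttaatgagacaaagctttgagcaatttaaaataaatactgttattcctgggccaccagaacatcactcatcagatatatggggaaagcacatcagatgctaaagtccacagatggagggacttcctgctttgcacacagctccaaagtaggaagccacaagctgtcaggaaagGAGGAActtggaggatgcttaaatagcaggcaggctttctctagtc
The first printed letter of the core closest to the start lies 27 bases before it in Cd68, 35 in Mrc1 and 46 in Lyz2. A match is a run of letters and does not show that the factor was bound.

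The genes shared by most leukocytes followed TBBC 3 without exception. Of 7 genes tested 0 passed, their log2 differences ran from -0.13 to 0.12, and TBBC 3 was the highest rat for all 7. Ptprc, which encodes CD45, the phosphatase on the surface of nearly all leukocytes, had levels of -0.37, -0.45 and 0.70 in TBBC rats, against -0.36, 0.11 and -0.02 in vehicle rats. TBBC 3 was 1.73-fold above the vehicle mean, and the other TBBC rats were at or just below the lowest vehicle rat. The log2 difference of Ptprc was 0.05 ± 0.33, with a limma adjusted p of 0.953. These values are from its brightest probe. Its other tested probes gave differences of 0.17 to 0.42, and on most of them TBBC 1 and 2 lay within the vehicle range. Laptm5, a lysosomal protein that limits antigen receptor signalling, had the smallest difference of any marker. Its levels were 2.68, 2.79 and 4.02 in TBBC rats and 2.90, 3.28 and 3.29 in vehicle rats, so that the TBBC rats enclosed the whole vehicle range. Cd53 and Cd37, membrane proteins of the tetraspanin family, Coro1a and Lcp1, which bind actin, and Rac2, a GTPase of blood cells, made up the rest. For these TBBC 3 lay 1.33-fold to 2.09-fold above the vehicle mean.

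T cell genes showed the same arrangement. Of 9 genes 8 were tested and 0 passed, with a median log2 difference of -0.02, and TBBC 1 and TBBC 2 were both below the vehicle mean for all 8. Cd3e, a chain of the T cell receptor complex, had levels of -5.34, -5.08 and -3.61 in TBBC rats, against -5.40, -4.21 and -4.47 in vehicle rats. TBBC 3 was the highest, and the other TBBC rats lay near the lowest vehicle rat. TBBC 3 was also the highest for its sister chains, on brighter probes. Cd3g had -1.61, -1.87 and -0.03 in TBBC rats and -1.48, -0.94 and -0.92 in vehicle rats, and Cd3d had -0.26, -0.03 and 0.64 in TBBC rats and -0.18, 0.07 and 0.11 in vehicle rats.

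Cd4, the coreceptor for MHC class II, which rat macrophages carry as well as helper T cells, had levels of -3.22, -3.43 and -2.17 in TBBC rats and -3.07, -2.81 and -2.75 in vehicle rats. TBBC 3 was above and the other TBBC rats below every vehicle rat. Cd8a, the coreceptor for MHC class I on cytotoxic T cells, was an exception. Its levels were -3.92, -5.62 and -3.74 in TBBC rats and -4.63, -3.30 and -3.41 in vehicle rats, with TBBC 2 the lowest and TBBC 3 inside the vehicle range. The log2 difference of Cd8a, -0.65 ± 0.59, was among the 5 lowest of the markers and had a limma adjusted p of 0.590. Cd2, an adhesion molecule of T and NK cells, had -5.81, -5.81 and -3.69 in TBBC rats and -5.38, -4.77 and -5.29 in vehicle rats. It was well above background in TBBC 3 and in no other TBBC rat. Lck and Zap70, the kinases that start T cell receptor signalling, had log2 differences of -0.13 ± 0.31 and 0.13 ± 0.37 (limma adjusted p = 0.851 and 0.884). Cd5, a brake on the receptor, did not pass the filter, with -6.19, -6.70 and -4.32 in TBBC rats and -6.18, -5.01 and -5.55 in vehicle rats.

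The B cell class rested on Cd79b alone, a signalling chain of the B cell receptor. Its levels were -3.94, -5.90 and -4.07 in TBBC rats, against -3.91, -4.50 and -4.43 in vehicle rats. TBBC 2 was the lowest rat and was not well above background, while TBBC 1 and 3 lay among the vehicle rats. The log2 difference was -0.36 ± 0.53, with a limma adjusted p of 0.758. Cytotoxic genes repeated the pattern of the T cell genes, with 0 of 3 passing and TBBC 3 the highest for all 3. Nkg7, a granule protein of NK and cytotoxic T cells, had -0.19, -0.62 and 0.13 in TBBC rats and -0.41, -0.02 and 0.04 in vehicle rats. Perforin (Prf1), which forms pores in target cells, had -2.12, -2.26 and -1.05 in TBBC rats and -1.75, -1.45 and -1.94 in vehicle rats. In both, TBBC 3 was above every vehicle rat and TBBC 2 below. The protease granzyme B (Gzmb) had -4.61, -4.18 and -3.39 in TBBC rats and -4.16, -3.74 and -3.61 in vehicle rats on its brightest probe, with a log2 difference of -0.23 ± 0.33 (limma adjusted p = 0.748). Of its other 2 probes, 1 gave a difference of 0.06 with vehicle 2 the highest rat.

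Of the antigen presentation genes, Cd74 departed from this order. Cd74, the invariant chain that guides MHC class II molecules to the compartment where peptide is loaded, had levels of 4.82, 4.61 and 5.58 in TBBC rats, against 6.14, 5.75 and 5.68 in vehicle rats. Every TBBC rat lay below every vehicle rat, as for 15.2% of all transcripts, and TBBC 3 was the closest to the vehicle rats. The SD was 0.51 in TBBC rats and 0.25 in vehicle rats (n = 3 each). The log2 difference of -0.85 ± 0.28 had the smallest p of all markers and did not pass after adjustment over all transcripts (limma adjusted p = 0.171, unadjusted p = 0.0198).

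RT1-Da, the alpha chain of the rat class II molecule that corresponds to human HLA-DR, had levels of 2.25, 2.08 and 3.72 in TBBC rats and 3.41, 3.49 and 3.18 in vehicle rats. TBBC 1 and 2 were far below the vehicle rats and TBBC 3 was above them. The means were 2.68 ± 0.90 in TBBC rats and 3.36 ± 0.16 in vehicle rats (SD, n = 3 each). The log2 difference was -0.68 ± 0.43 (limma adjusted p = 0.433), and a second probe gave -0.69. Without TBBC 3 the difference was -1.20 ± 0.14 with a limma adjusted p of 0.0465. RT1-Da was then the 1 marker called lower, where 0.272% of all transcripts were called lower. Cd74 had -1.14 ± 0.18 in that comparison and did not pass (limma adjusted p = 0.0652). TBBC 3 was the highest rat for RT1-Da and was singled out after the values had been seen. Leaving it out lowers the TBBC mean and spread, so the call is a description. Ctss, the protease that trims the invariant chain, followed the macrophage genes, with 2.11, 2.56 and 3.38 in TBBC rats and 2.08, 2.57 and 2.76 in vehicle rats.

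Genes of the class II pathway outside the markers were taken from a list of 9, of which 8 were tested. With Cd74 and RT1-Da, 10 genes were measured, 0 passed in limma, 4 had an unadjusted p under 0.05 (20% of all transcripts), and all 10 had a negative log2 difference, with a median of -0.83, where 17619 of 32956 transcripts were negative. TBBC 1 and 2 were both below every vehicle rat for 9 of the 10, against 23.3% of all transcripts. From the vehicle mean, the median gene lay at -1.07, -1.36 and -0.13 in TBBC 1, 2 and 3, against 0.37, -0.04 and -0.31 in vehicle 1, 2 and 3. The summed linear level was 49.1, 43.4 and 95.3 in TBBC rats and 130, 99.1 and 88.8 in vehicle rats.

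Ciita, the coactivator without which class II genes are hardly transcribed, had levels of -2.64, -2.82 and -2.31 in TBBC rats, against -1.52, -1.45 and -2.13 in vehicle rats. Every TBBC rat lay below every vehicle rat, as for 15.2% of all transcripts, with a log2 difference of -0.89 ± 0.23 (limma adjusted p = 0.121). RT1-DMa and RT1-DMb, the chains of the molecule that exchanges peptides on class II, did not overlap either. RT1-DMa had 1.31, 1.64 and 1.93 in TBBC rats and 2.83, 2.25 and 2.15 in vehicle rats, and RT1-DMb had 1.11, 1.22 and 1.84 in TBBC rats and 2.69, 1.98 and 1.92 in vehicle rats. The peptide-binding chains RT1-Db1 and RT1-Bb behaved like RT1-Da in TBBC 1 and 2, at 2.19 and 1.82 for RT1-Db1 and 2.40 and 2.14 for RT1-Bb. In TBBC 3 these chains stood at 3.35 and 3.70, against ranges of 2.90 to 3.58 and 3.32 to 4.16 in vehicle rats.

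**Figure D2:**
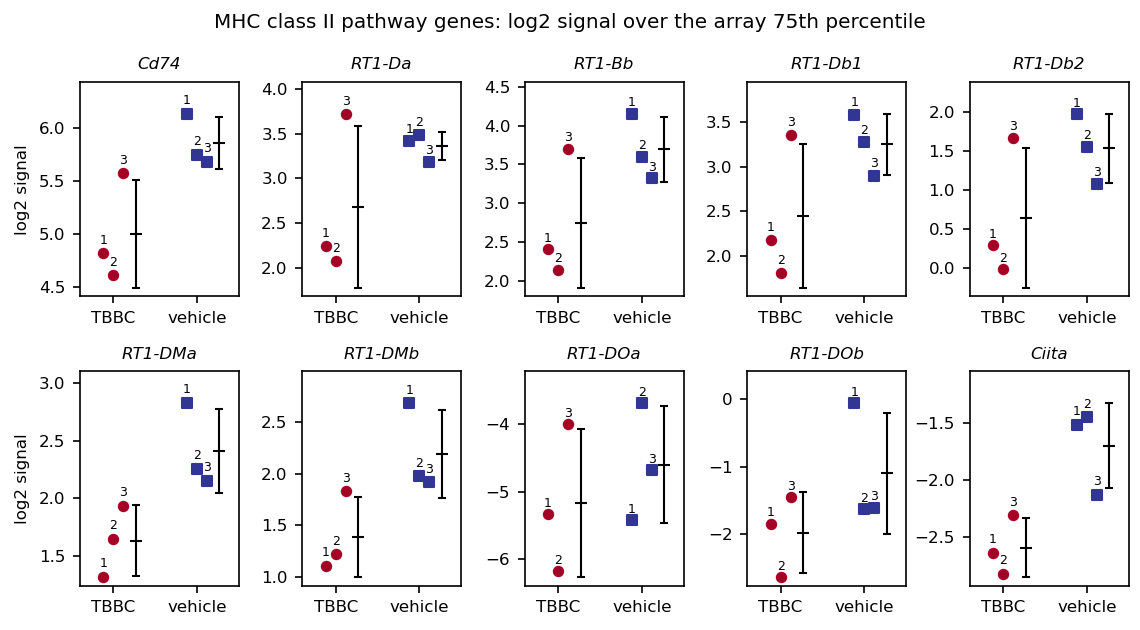
Log2 level of the 10 measured MHC class II genes on each array, with red circles for TBBC rats, blue squares for vehicle rats, replicate numbers above the points, and bars for the mean and SD of each group. All 10 means are lower in TBBC rats. The groups do not overlap for Cd74, RT1-DMa, RT1-DMb and Ciita, as for 15.2% of all transcripts with TBBC lower.

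Class II promoters are known for a compact block of an X box and a reverse CCAAT, called the Y box, through which CIITA is recruited. CCAAT, searched on both strands, was in 9 of 9 promoters of class II genes, against 34.0% of all 33469 promoters, and an X box run of GCAACNGATG, the one in RT1-Da with a base left free, was in 4 of 9, against 0.108% (36 promoters). These letters were chosen after the promoters had been read, so the shares are a description. In Cd74 the only match was a forward CCAAT 189 bases before the start, which is not the reverse form of the block. The 9 promoters include RT1-Ba, which was not tested, and none was available for RT1-DMb and Ciita. The promoters of RT1-Da, RT1-Db1 and RT1-DMa are printed to show the block beside the genes that were low in TBBC 1 and 2; capitals mark both boxes, and ATTGG is CCAAT on the other strand.
RT1-Da (chr20:4515165-4515414, + strand): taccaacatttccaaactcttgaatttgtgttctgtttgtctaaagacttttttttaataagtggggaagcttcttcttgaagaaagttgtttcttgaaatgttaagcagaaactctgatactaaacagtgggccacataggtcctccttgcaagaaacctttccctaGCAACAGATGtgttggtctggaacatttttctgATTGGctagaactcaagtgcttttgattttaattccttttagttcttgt
RT1-Db1 (chr20:4560163-4560412, - strand): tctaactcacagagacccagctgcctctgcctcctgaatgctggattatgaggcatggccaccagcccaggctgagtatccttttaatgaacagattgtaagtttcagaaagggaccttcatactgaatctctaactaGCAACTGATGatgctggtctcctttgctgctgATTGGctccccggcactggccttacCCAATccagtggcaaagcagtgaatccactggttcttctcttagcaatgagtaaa
RT1-DMa (chr20:4712336-4712585, - strand): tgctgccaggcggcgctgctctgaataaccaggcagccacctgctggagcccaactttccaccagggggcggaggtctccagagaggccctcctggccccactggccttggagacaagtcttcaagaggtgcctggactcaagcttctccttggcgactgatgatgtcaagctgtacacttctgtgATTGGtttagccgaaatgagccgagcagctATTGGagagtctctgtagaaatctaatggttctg
In RT1-Da the X box lies 82 bases and the Y box 49 bases before the start. RT1-Db1 has the X box at 112 bases and CCAAT at 55 and 80 bases, and RT1-DMa has CCAAT at 34 and 64 bases with no run of the X box letters searched. The PU.1 core was in 2 of these 9 promoters.

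Leaving out single rats showed how far the marker medians rested on each. Without TBBC 3, 31 of the 35 markers had a negative log2 difference, their median was -0.32, and 9 had an unadjusted p under 0.05, where 23.7% of all transcripts did. The 4 positive ones were Cd14 at 0.46, Mrc1 at 0.42, Itgam at 0.16 and Aif1 at 0.13. For Aif1 this held on its brightest probe alone. The lowest after the class II genes were Cd8a at -0.99, Cd2 at -0.66, Cd79b at -0.64 and Cd3g at -0.63, none of which passed in limma. Without TBBC 2 the median was 0.24 with 30 markers positive, and without TBBC 1 it was 0.19 with 26 positive. Leaving out vehicle rats moved it less, to between -0.12 (without vehicle 1) and 0.06. On the slide that holds both groups, where TBBC 1 is set against all vehicle rats, 29 of 35 markers were negative with a median of -0.27. TBBC 2 and TBBC 3, at marker medians of -0.37 and 0.66 from the vehicle mean, shared a slide and a scan.

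**Figure D3:**
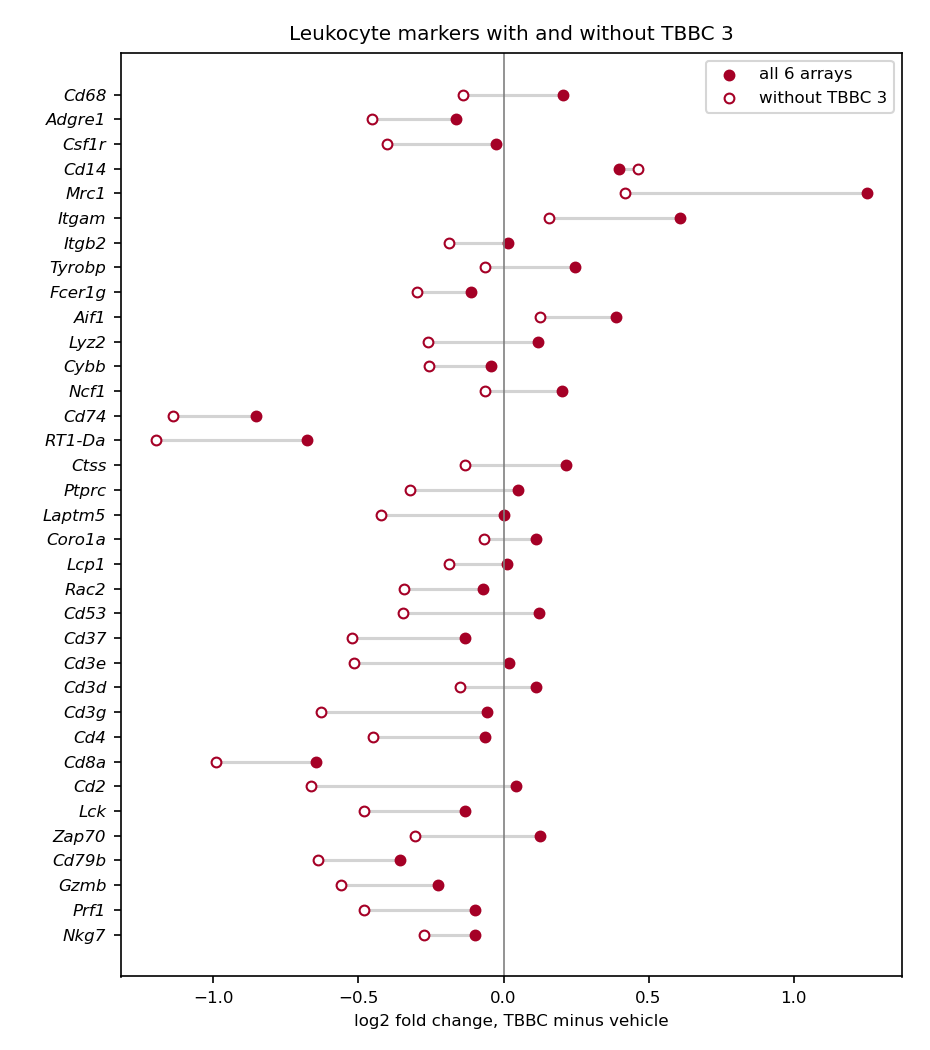
Log2 difference between TBBC and vehicle rats for each measured marker with all 6 arrays (filled points) and without TBBC 3 (open points), joined by a line. With all arrays 19 of 35 markers are above 0, and without TBBC 3 there are 4, with RT1-Da the 1 marker past the threshold. TBBC 3 was singled out after the values had been seen, so that call is a description.

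Agreement between probes was checked for the 14 markers that had several tested probes. The sign of the difference was the same on all probes for 12 of them, the exceptions being Csf1r and Gzmb, and TBBC 3 was the highest rat on all probes for 11. Over the 54 tested probes, TBBC 3 was the highest for 47.

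Other genes of the same cells, taken from lists that exclude the markers, showed how far the TBBC 3 pattern reached. Among 31 further macrophage and monocyte genes, 23 were tested, 0 passed in limma with 1 at an unadjusted p under 0.05, and TBBC 3 was the highest rat for 16. Trem2, a lipid receptor of macrophages, had -1.77, -2.20 and 1.08 in TBBC rats and -1.21, -1.21 and -0.82 in vehicle rats. Gpnmb, a glycoprotein of macrophages loaded with debris, had the smallest p of the list, with -0.60, -0.81 and 0.73 in TBBC rats and -2.59, -2.50 and -1.91 in vehicle rats. Unlike most markers Gpnmb was higher in every TBBC rat than in every vehicle rat, as for 13.1% of all transcripts. Its log2 difference of 2.11 ± 0.43 did not pass (limma adjusted p = 0.0862). The complement genes C1qa, C1qb and C1qc, made by resident macrophages, had differences of 0.62, 0.67 and 0.40, each with TBBC 3 the highest. Cd300a, with the next smallest p after Gpnmb, was ordered otherwise, with TBBC 3 the lowest TBBC rat. It had -0.09, -1.03 and -1.33 in TBBC rats and -2.11, -1.07 and -2.16 in vehicle rats (limma adjusted p = 0.273). Cd86, Slc11a1, Cx3cr1, Csf2ra, Csf2rb and Cyba were not highest in TBBC 3 either.

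Of 24 further T and NK cell genes 18 were tested and of 24 further pan-leukocyte signalling genes 18, with 0 passing and 0 at an unadjusted p under 0.05 in either list. TBBC 3 was the highest rat for 13 and 14 of them. Foxp3, the factor of regulatory T cells, and Tbx21, a factor of helper and NK cells, were not highest there, with log2 differences of -0.37 ± 0.79 and -0.01 ± 0.11. Foxp3 scattered widely, with an SD of 1.23 in TBBC rats and 1.17 in vehicle rats. Cd8b and Ctla4, with the smallest p of the T and NK list, were not highest in TBBC 3 either. Their log2 differences were -0.50 ± 0.26 and -0.31 ± 0.17 (limma adjusted p = 0.348 and 0.365). The Tbx21 probe was far brighter than those of Cd3e, Cd3g and Cd3d, at 6.03, 6.18 and 5.99 in TBBC rats and 6.13, 6.11 and 6.01 in vehicle rats. Whether it follows T and NK cells was not tested. Neutrophil genes were measured for 6 of 12, with TBBC 3 the highest for 5. Of these 0 passed in limma and 1, Il1r2, had an unadjusted p under 0.05. Il1r2 was higher in every TBBC rat than in every vehicle rat, as for 13.1% of all transcripts. Its log2 difference was 1.62 ± 0.56 (limma adjusted p = 0.190), and it passed the filter through the TBBC group alone. Camp, with the next smallest p, had -0.14 ± 0.12, and TBBC 3 was not its highest rat. S100a8 and S100a9, the calprotectin subunits, stood 2.87-fold and 2.76-fold above the vehicle mean in TBBC 3. Mast cell genes, measured for 3 of 6, had TBBC 3 the highest for 0, and their summed level was 2.55 to 2.68 in TBBC rats and 2.49 to 2.76 in vehicle rats.

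B and plasma cell genes, measured for 7 of 14, differed among themselves. Cd22 and Fcrla were highest in TBBC 3, with log2 differences of 0.25 and 0.38. Derl3, listed for its role in protein quality control in the endoplasmic reticulum of plasma cells, had 5.10, 2.41 and 3.34 in TBBC rats and -1.11, -1.28 and -0.65 in vehicle rats. It was far higher in every TBBC rat, and its difference of 4.63 ± 0.65 just missed the threshold (limma adjusted p = 0.0508). Tnfrsf17, the plasma cell receptor BCMA, lay the other way, with -6.55, -7.47 and -5.67 in TBBC rats and -4.79, -5.45 and -5.65 in vehicle rats. It was dim, well above background in 1 TBBC rat and in all vehicle rats, so it passed the filter through the vehicle group alone. Its log2 difference of -1.27 ± 0.47 did not pass in limma (limma adjusted p = 0.214).

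**Figure D4:**
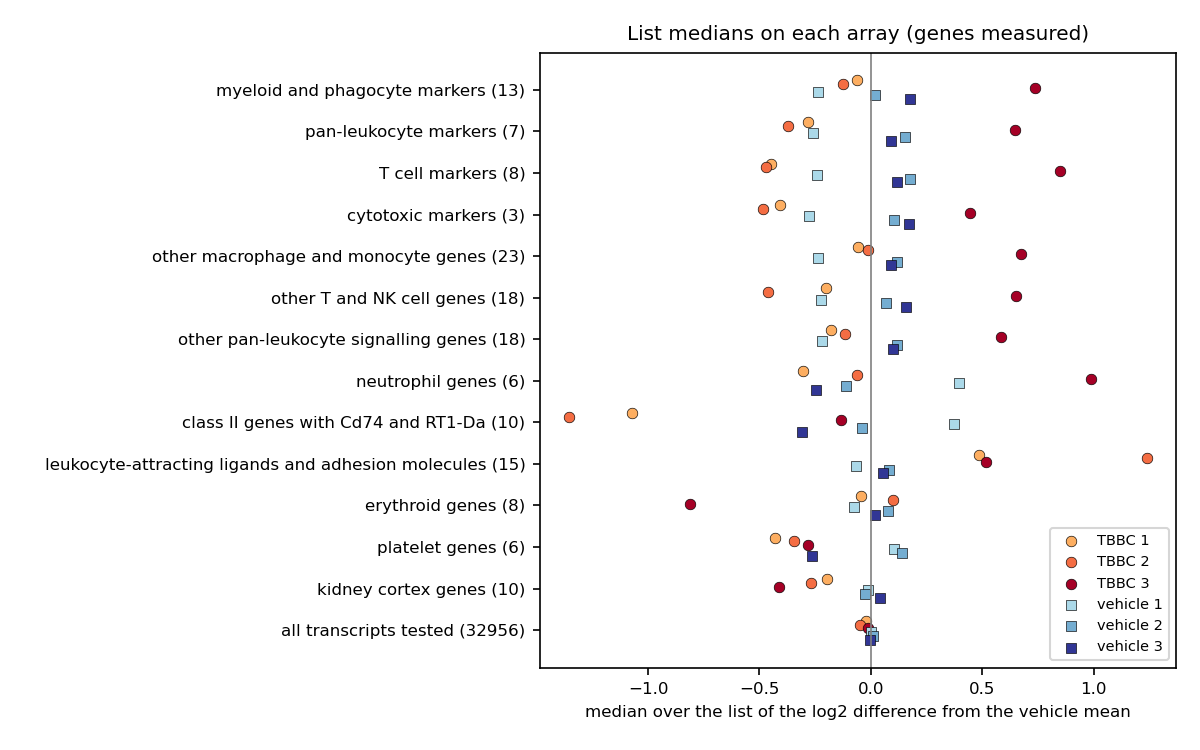
Median log2 level of each marker group and gene list on each array minus the vehicle mean; circles are TBBC rats and squares vehicle rats, with the number of genes measured in brackets. The myeloid, T cell, cytotoxic, neutrophil and pan-leukocyte lists have TBBC 3 far right of the other arrays, the erythroid list has it left, and the ligand and adhesion list has all 3 TBBC rats right of the vehicle rats.

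The ligands that draw leukocytes in, and the adhesion molecules that hold them, were ordered differently from the leukocyte genes. Of 16 genes 15 were tested, 0 passed in limma, 10 had an unadjusted p under 0.05 (20% of all transcripts) and 10 did not overlap with TBBC higher (13.1% of all transcripts), with a median log2 difference of 0.63. The median gene lay 0.49, 1.24 and 0.52 above the vehicle mean in TBBC 1, 2 and 3, and TBBC 3 was the highest rat for 4 of 15. The monocyte chemokines Ccl2 and Ccl7 had the smallest p. Ccl2 had 0.34, 0.30 and 0.71 in TBBC rats and -0.71, -0.62 and -1.51 in vehicle rats, and Ccl7 had -4.28, -3.17 and -3.38 in TBBC rats and -5.22, -4.95 and -5.30 in vehicle rats. All 3 TBBC rats were above all vehicle rats in both, and the limma adjusted p was 0.0791 for Ccl2 and 0.0799 for Ccl7. Il34 and Csf1, the ligands of Csf1r, had differences of 0.54 ± 0.15 and 0.53 ± 0.19 with no overlap between groups (limma adjusted p = 0.135 and 0.200), beside a Csf1r difference of -0.02. Cxcl10, which attracts activated T cells, had 1.84, 3.56 and 1.16 in TBBC rats and -0.23, -0.23 and -0.03 in vehicle rats, with TBBC 3 the lowest TBBC rat.

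Genes of other cells that a cortex sample can hold were set beside the marker levels of TBBC 3. Erythroid genes, measured for 8 of 10, were lower in TBBC 3 than in every vehicle rat for 7. Their summed level was 1069, 1193 and 636 in TBBC rats and 1049, 1152 and 1100 in vehicle rats. Fat cell genes were measured for 4 of 6, and their summed level was 1.46, 1.53 and 3.28 in TBBC rats and 1.78, 1.69 and 2.10 in vehicle rats. Cfd, the fat cell protease adipsin, was high in TBBC 3 alone, with -2.33, -2.59 and 1.04 in TBBC rats and -2.78, -2.47 and -2.58 in vehicle rats. Adiponectin (Adipoq), which defines fat cells, had -0.26, -0.08 and -0.07 in TBBC rats and 0.35, -0.02 and -0.21 in vehicle rats. Lymphoid tissue genes were measured for 6 of 8, with a summed level of 5.34 to 9.62 in TBBC rats and 3.69 to 6.26 in vehicle rats, and Ccl19, a chemokine of lymphoid stroma, had a difference of 1.03 ± 0.19 (limma adjusted p = 0.0756). Platelet genes, measured for 6 of 7, summed to 1.94 to 3.22 in TBBC rats and 2.15 to 2.66 in vehicle rats. Of these 6 genes 5 had a negative log2 difference, with a median of -0.35, 3 had an unadjusted p under 0.05 and 0 passed, and 3 did not overlap with TBBC lower (15.2% of all transcripts). Cell division genes, measured for 5 of 6, summed to at most 5.78 in TBBC rats and 6.31 in vehicle rats. The part of these genes in the marker levels of TBBC 3 was not tested.

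The mean profile of the markers over the 6 arrays was also set against every named gene. With a marker's own values left out of the mean, 16 of the 35 markers had a Pearson r over 0.9 with the others, or 45.7%, against 271 of the non-markers, or 2.21%. This is a description over 6 arrays of which TBBC 3 sets most of the spread. The markers least alike were Cd14, Cd79b and Cd74. The 12 non-markers most alike, by r, were Il16, C5ar1, Fes, Glipr1, Hacd4, Ly49si2, Cnr2, Gpr132, Cfhr4, Rhoh, Nckap1l and Epsti1. C5ar1, the receptor for complement C5a, had -2.27, -2.43 and -1.23 in TBBC rats and -2.22, -1.91 and -1.93 in vehicle rats. Rhoh, a GTPase of blood cells, had -2.47, -2.73 and -1.32 in TBBC rats and -2.33, -2.10 and -2.07 in vehicle rats. For all 12 TBBC 3 was the highest rat, and the log2 differences lay between -0.12 and 0.19. Both follow from the choice of these genes by likeness to the marker profile.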

How the data were processed

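Total RNA of renal cortex was hybridised to 1-colour (Cy3) Agilent arrays, 1 per rat. The deposited intensity values were made by the authors in Agilent Feature Extraction (10.7 in the submitters' processing notes and 10.7.1.1 per the file headers) and are background-subtracted signals without scaling across arrays. Set against them, the deposited value table is a linear ratio of that signal to its array's 75th percentile (within 0.3%), with column medians of 0.113, 0.107 and 0.114 for TBBC 1 to 3 and 0.111, 0.112 and 0.113 for vehicle 1 to 3, no centring, and a direction as in the signals. It was used as an alternative.

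Of 62976 spots, 1439 controls and outlier-flagged spots (0 to 9 per array) were left out. No spot was saturated. Accessions were matched without versions to a RefSeq gene table (GRCr8), which named 28206 of 61537 probes. The file headers name another build, so coordinates are given only for the RefSeq promoters. Each signal over the 75th percentile of its array was put on the log2 scale. A probe was tested if well above background on all arrays of at least 1 group, with at least 2 unflagged arrays per group. The brightest tested probe stood for a gene and unnamed probes for themselves, so that 41992 tested probes gave 32956 transcripts. Groups, taken from the sample titles, were compared in R 4.3.3 with limma 3.58.1 (lmFit and a two-sided eBayes test) and p-values adjusted by Benjamini-Hochberg across the transcripts, which called 84 higher and 91 lower. The number of arrays limits the precision. The procedure was tested on simulated data.

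The markers, the 14 gene lists (183 genes) and the tests were chosen with earlier results of these data known. Levels on every array are given for markers that define a cell class and for the 5 highest and 5 lowest differences. Further markers were picked after their values were seen, as were list genes named beyond the 2 smallest p of a list. In some lists the genes with the 2 smallest p are not named. Alternatives covered scaling, background correction (normexp with an offset of 50 on the median signal, as the files used here have no mean signal), the filter on dim probes, flags, probe summary, array weights, eBayes with trend and robust, slide and replicate blocks (statmod 1.5.0), and each array left out. Samples that share a replicate number did not deviate together.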

Additional observations from a re-analysis of the deposited data

How the results depend on the processing

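The count of markers past the threshold was 0 under every setting run except without TBBC 3, where it was 1 (RT1-Da, -1.20, limma adjusted p = 0.0465; 0.0465 to 0.711 over all settings). Over the fits that leave out 1 array it ran from 0 to 1, and the marker median ran from -0.32 (without TBBC 3) to 0.24 (without TBBC 2). The 10 class II genes had a negative difference in each setting that kept them (9 with the stricter filter), while 1 further, dim gene was above 0 when no filter was set. The count over all transcripts, 175 here, was 761 with normexp background correction (424 higher and 337 lower), 52 with no filter on dim probes, 1087 with trend and robust, 48 with slide as a fixed term (43 higher and 5 lower), 307 on the slide that holds both groups (263 higher and 44 lower), 0 with the replicate block (5366 at an unadjusted p under 0.05) and 6 to 274 with 1 array left out, at 10, 6 and 14 without vehicle 1, 2 and 3, 58 without TBBC 2 and 274 without TBBC 3. The cause of these shifts was not tested. The numbers pair no samples by design, and same-numbered TBBC and vehicle samples correlated at -0.09, 0.03 and -0.07; the block called 0 markers. With 3 rats a group, the spread among TBBC rats limits every marker difference. Dim probes such as Itgam, Cd2, Cd79b, Cd5 and Cd163, and Tnfrsf17 outside the markers, lie near background.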
